A study of Rattus norvegicus with 20 samples.

Results

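The 7 genes described here, Wfs1, Mpped1, Fibcd1, Pou3f1, Zdhhc22, Nov and Dkk3, are used as markers of CA1 pyramidal cells. They were picked by symbol, and all 7 had a row among the 17168 gene symbols of both count tables. The mRNA of 20 female rats, all aged 4 months, was sequenced from the hippocampus, each rat as a library of its own. The first comparison, of genotypes, set 5 untreated transgenic-AD rats (TGNT) against 5 wild-type littermates on normal chow (WTNT). The labels name the transgenic line TgF-344AD. TG-AD rats carry human APP with the Swedish mutation and human PS1-ΔE9, both under the prion promoter, which is not restricted to the hippocampus. The second, of treatment, set 6 transgenic rats (TGTR) against 4 further TGNT rats. The chow of TGTR rats held diazoxide (DZ), at a daily 10 mg/kg, and dibenzoylmethane (DIB), at a daily 200 mg/kg, starting on day 52, so that every rat of this comparison carried the transgenes and no wild-type rat was in it. The labels give the left hippocampus as the tissue, while the study's methods name the right. The whole hippocampus was extracted, so a lower level of a CA1 gene with fewer CA1 cells and one with less of its RNA per cell cannot be told apart.

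CA1 is the field of the hippocampus that receives the Schaffer collaterals of CA3 and sends its output to the subiculum and cortex, and its pyramidal cells are among the neurons lost in Alzheimer's disease. Gene expression in these cells changes along the long axis of the hippocampus, and Wfs1 is best known as a marker of dorsal CA1. The 7 proteins have unlike roles. Wfs1 encodes wolframin, a membrane protein of the endoplasmic reticulum that is mutated in Wolfram syndrome. Pou3f1 encodes a POU-domain transcription factor, and Zdhhc22 belongs to the family of palmitoyl transferases. Mpped1 encodes a protein with a metallophosphoesterase domain and Fibcd1 a membrane protein with a fibrinogen-like domain. Nov, also called Ccn3, and Dkk3 encode secreted proteins, of the CCN and the Dickkopf family respectively.

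The RefSeq tables of build GRCr8 held a window of 250 bases before a transcript start for 4 of the 7 genes. Those of Wfs1 and Fibcd1 end at the base before the annotated gene start and are shown for that reason, while those of Mpped1 and Zdhhc22 lie inside the annotated gene, before a start within it, and are not shown. The Wfs1 window lies at chr14:78034955-78035204 on the plus strand and has a GC content of 66%. The Fibcd1 window lies at chr3:35524143-35524392 on the minus strand and has a GC content of 72%, beside a median of 51.2% over all windows. Both are written 5′ to 3′ along the gene, with matches to CAGCTG (an E-box), CCAAT and GGGCGG (the core of the GC box) on either strand in capitals.
Wfs1: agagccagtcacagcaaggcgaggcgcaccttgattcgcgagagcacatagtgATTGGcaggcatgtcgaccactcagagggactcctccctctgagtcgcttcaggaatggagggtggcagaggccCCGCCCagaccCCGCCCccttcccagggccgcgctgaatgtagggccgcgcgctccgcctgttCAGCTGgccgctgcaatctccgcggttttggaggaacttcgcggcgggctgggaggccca
Fibcd1: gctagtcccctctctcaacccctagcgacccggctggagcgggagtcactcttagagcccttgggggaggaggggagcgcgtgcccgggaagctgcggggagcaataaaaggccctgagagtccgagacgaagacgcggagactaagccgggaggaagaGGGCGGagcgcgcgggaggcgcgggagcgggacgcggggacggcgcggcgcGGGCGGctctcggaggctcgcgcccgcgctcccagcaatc
GGGCGG was found 2 times in each, and 30.5% of all 33469 windows held it. CAGCTG and CCAAT had 1 match each in the Wfs1 window, the latter on the opposite strand, and 0 in that of Fibcd1, while 12% and 34.0% of all windows held them. The TATAAA and ATGCAAAT (octamer) letters were found in neither, and 12.9% and 1.56% of all windows held them. No match overlapped another.

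Estimated counts summed to 5848458 to 9926088 per WTNT rat and 6610498 to 8117561 per TGNT rat in the genotype comparison, and to 11151973 to 13481985 per TGNT and 9215039 to 14175594 per TGTR rat in the treatment comparison. RPM are the authors' read counts scaled to the depth of each library with TMM factors, separately for each table, so levels were compared only within a table. App, counted together with the human transgene, was 1.99-fold higher in TGNT than in WTNT rats (edgeR quasi-likelihood test, adjusted p = 2.45e-07), and the 5 TGNT rats lay above all 5 WTNT rats. Excitatory neuron markers summed to 2677 to 5176 RPM in the 20 rats. Spink8, another gene used as a marker of CA1, was at or near 0 (at most 0.380 RPM), and so did not mark CA1 in these libraries. Treated libraries stood apart in choroid plexus markers: TGTR replicate 5 had 2881 RPM of these in sum and TGTR replicate 6 had 137 RPM, and the other 18 rats had 2.12 to 18.2 RPM.

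None of the 7 CA1 genes was called different between TGNT and WTNT rats. In the quasi-likelihood fit of edgeR, which covered all genes, 0 of 7 passed an adjusted p under 0.05 with a change of at least 1.5-fold, and 0.0116% of all genes did. At an unadjusted p under 0.05 there were 2 of 7 genes, Nov and Dkk3, beside 3.79% of all genes with reads, and every adjusted p of the 7 genes was 1. The log2 fold change was positive in 2 genes and negative in 5, with a median of -0.10, against a median of 0.0068 over all genes, of which 52% were higher in TGNT. The groups overlapped in all 7 genes, while they were apart in 0.601% of all genes.

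Wfs1 had the lowest log2 fold change of the 7 genes between TGNT and WTNT rats. Its levels were 291, 346, 222, 324 and 115 RPM in the WTNT rats and 123, 264, 78.6, 269 and 226 RPM in the TGNT rats, in the order of their replicate numbers. The means were 260 ± 93.4 RPM (SD, n = 5) in WTNT and 192 ± 86.4 RPM (SD, n = 5) in TGNT. Each group held at least 1 rat below 124 RPM, so the groups overlapped over most of their range. The log2 fold change was -0.43 with a 95% interval from -1.09 to 0.24 (edgeR quasi-likelihood test, p = 0.191, adjusted p = 1; exact permutation test of mean RPM, p = 0.254). The interval spans 0.468-fold to 1.18-fold of the WTNT level, so changes within that range were not excluded with these rats. The value depended on single rats: it was -0.24 without TGNT replicate 3, and -0.61 without WTNT replicate 5, with an unadjusted p of 0.0393 and an adjusted p of 0.970 in the same edgeR fit.

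Pou3f1, the transcription factor, was at 74.4, 95.1, 68.1, 80.1 and 52.3 RPM in WTNT rats and at 65.9, 91.1, 56.2, 62.7 and 57.2 RPM in TGNT rats. Its lowest and its highest value were both in WTNT rats, and 4 of 5 TGNT rats were below 66 RPM. The log2 fold change of -0.15 ± 0.15 (SE) did not pass (edgeR quasi-likelihood test, adjusted p = 1). It was -0.041 without WTNT replicate 2 and -0.30 without TGNT replicate 2.

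Mpped1 and Fibcd1 had the narrowest intervals around 0 next to Dkk3. Mpped1 was at 198 ± 16.0 RPM (SD, n = 5) in WTNT and 192 ± 32.0 RPM (SD, n = 5) in TGNT rats, and its log2 fold change lay between -0.25 and 0.17 at 95% confidence. Fibcd1 was at 119 ± 17.6 RPM (SD, n = 5) in WTNT and 110 ± 13.4 RPM (SD, n = 5) in TGNT, with an interval from -0.32 to 0.12. For these genes the intervals exclude a change of 1.5-fold in either direction. Zdhhc22 was close to the limit of detection, with 1.02 to 4.14 RPM in the WTNT group and 2.12 to 4.67 RPM in the TGNT group, made of 6 to 31 counts per rat. Its interval, from -0.52 to 0.83, leaves room for such a change at this depth.

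The secreted proteins were the 2 genes under an unadjusted p of 0.05, in opposite directions. Nov was at 69.4, 113, 135, 109 and 126 RPM in WTNT rats and at 156, 164, 128, 132 and 108 RPM in TGNT rats. The 2 highest values were in TGNT rats and the lowest, apart from the rest, in WTNT replicate 1. Its log2 fold change was 0.32 ± 0.15 (SE; 95% interval 0.0055 to 0.63; edgeR quasi-likelihood test, p = 0.0466, adjusted p = 1), and the exact permutation test of mean RPM gave p = 0.135. Dkk3 was at 496, 461, 412, 442 and 402 RPM in WTNT rats and at 396, 372, 406, 422 and 362 RPM in TGNT rats. Of the TGNT rats 3 were below every WTNT rat, and the other 2 lay within the WTNT range. Its log2 fold change was -0.17 ± 0.067 (SE; 95% interval -0.31 to -0.028; edgeR quasi-likelihood test, p = 0.0223, adjusted p = 1), and the exact permutation test gave p = 0.0476, where 0.00794 is the smallest p that 5 against 5 rats allow. Without WTNT replicate 1 the log2 fold change of Nov was 0.19. For Dkk3 the whole interval lies within a 1.5-fold change.

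**Figure D1:**
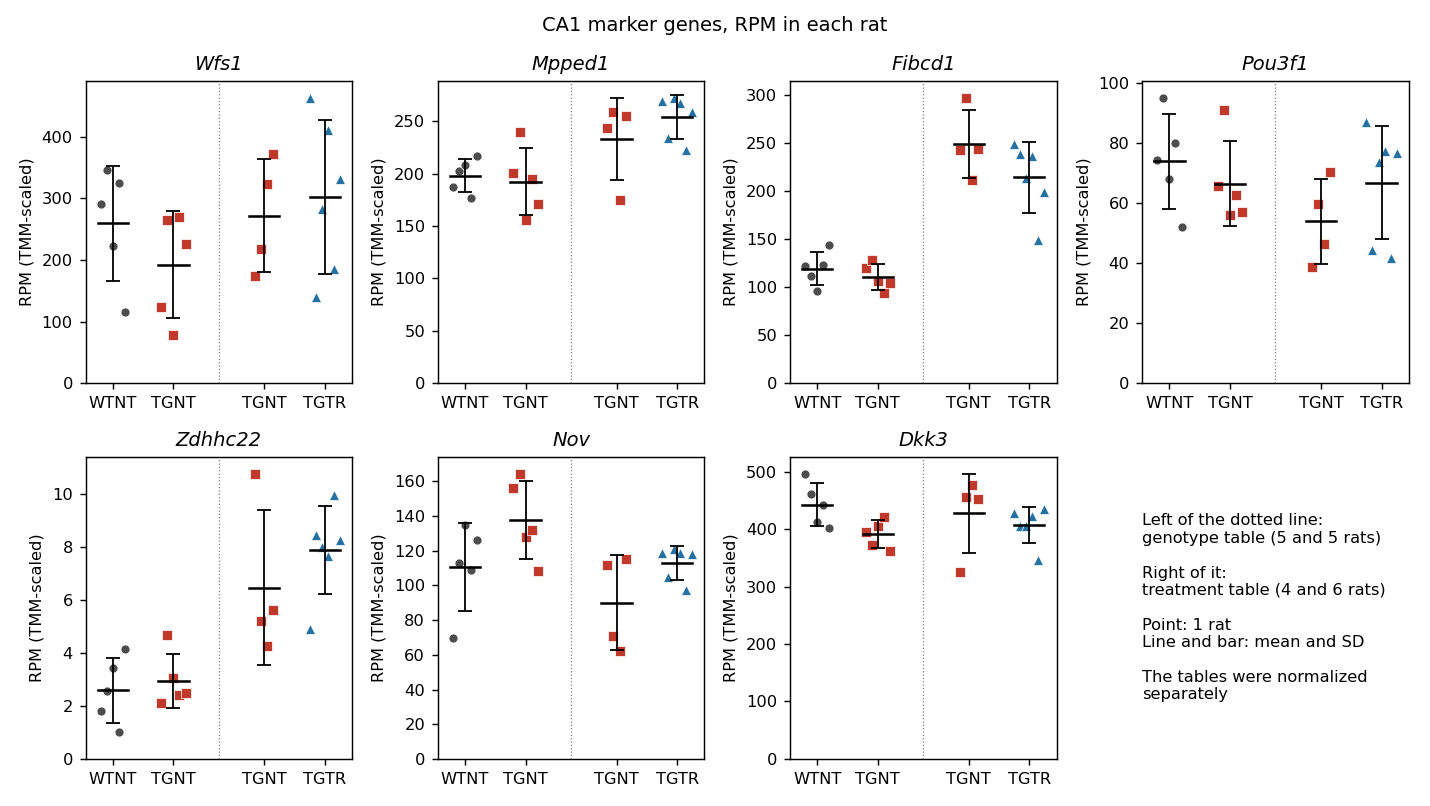
RPM of the 7 CA1 genes in each of the 20 rats, with genotype groups left and treatment groups right of the dotted line; points are rats, horizontal lines are group means and bars are SD. In all 7 genes the paired groups overlap, and Wfs1 ranges from 78.6 to 346 RPM in the genotype and from 140 to 462 RPM in the treatment comparison.

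In the treatment comparison, 0 of 7 CA1 genes passed the thresholds between TGTR and TGNT rats, and 0% of all genes did so by edgeR's quasi-likelihood test. Without adjustment 843 genes, or 5.67% of those with reads, had a p under 0.05. Among the other tests DESeq2 called 3 genes in all, edgeR's exact test 4, its likelihood ratio test 5 and limma-trend 0, with 0 of the 7 CA1 genes in each. Nov was the only one of the 7 at an unadjusted p under 0.05. The log2 fold change was positive in 5 genes and negative in 2, with a median of 0.16 against 0.00048 over all genes, of which 50.2% were higher in TGTR. All 7 genes overlapped between the groups, while 1.33% of all genes did not.

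Wfs1 was at 174, 217, 323 and 372 RPM in TGNT rats, and at 140 to 462 RPM with a median of 307 in TGTR rats. The lowest and the highest of the 10 values were both in treated rats. Between the groups the log2 fold change was 0.16, with a 95% interval from -0.50 to 0.82 (edgeR quasi-likelihood test, p = 0.613, adjusted p = 1; exact permutation test, p = 0.681). Without TGTR replicate 1 or without TGNT replicate 1 its sign turned, to -0.0088 and -0.0040. Pou3f1 was at 38.9, 59.9, 46.4 and 70.6 RPM in TGNT rats and at 41.8 to 87.2 RPM with a median of 75.3 in TGTR rats. Of the 6 treated rats 4 were above every untreated rat, while TGTR replicates 2 and 5 were at 44.6 and 41.8 RPM. Its log2 fold change was 0.32 ± 0.22 (SE, edgeR quasi-likelihood test, adjusted p = 0.990; exact permutation test of mean RPM, p = 0.267).

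Nov was at 112, 70.7, 62.3 and 115 RPM in TGNT rats and at 97.2 to 121 RPM with a median of 118 in TGTR rats. TGNT rats fell into a lower and a higher pair, the higher pair within the range of the treated rats. The log2 fold change was 0.34 ± 0.15 (SE; 95% interval 0.0034 to 0.67; edgeR quasi-likelihood test, p = 0.0480, adjusted p = 0.990), and the exact permutation test of mean RPM gave p = 0.0857, with 0.00476 as the smallest p possible. Nov thus had a positive log2 fold change in both comparisons, which share no library, and passed the adjusted threshold in neither. Without TGNT replicate 3 the treatment value was 0.19. Over 19 alternatives for each comparison, the log2 fold change of Nov stayed positive in all, with an unadjusted p under 0.05 in 7 for the genotype and in 9 for the treatment comparison.

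Dkk3 was at 325, 456, 477 and 453 RPM in TGNT rats and at 346 to 435 RPM with a median of 415 in TGTR rats. TGNT replicate 1 was lower than all treated rats and the other 3 TGNT rats were higher than all of them, so the means, 428 ± 69.2 RPM (SD, n = 4) and 407 ± 32.1 RPM (SD, n = 6), differed by less than the spread (log2 fold change -0.07, 95% interval -0.28 to 0.14). Fibcd1 ranged from 211 to 296 RPM in TGNT and from 148 to 249 RPM in TGTR rats, with a log2 fold change of -0.21 ± 0.13 (SE, edgeR quasi-likelihood test, adjusted p = 0.990). The lowest value, 148 RPM, was that of TGTR replicate 5, the library with the most choroid plexus marker RNA, and without each rat in turn the log2 fold change of Fibcd1 ranged from -0.28 to -0.12. Mpped1 ranged from 175 to 259 RPM in TGNT and from 222 to 272 RPM in TGTR rats, with a log2 fold change of 0.13 ± 0.10 (SE), which was 0.0098 without TGNT replicate 3.

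Zdhhc22, at 57 to 123 counts per rat, was better measured here than in the genotype comparison. TGNT replicate 1 was at 10.8 RPM, above all other rats of the table, and the other 3 TGNT rats were at 4.28, 5.23 and 5.61 RPM. TGTR rats were at 4.93 to 10.0 RPM with a median of 8.14, and 5 of 6 were above those 3 TGNT rats. With all rats the log2 fold change was 0.28 ± 0.25 (SE, edgeR quasi-likelihood test, adjusted p = 1; exact permutation test of mean RPM, p = 0.329). Without TGNT replicate 1 it was 0.65, with an adjusted p of 0.385 in the same edgeR fit.

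**Figure D2:**
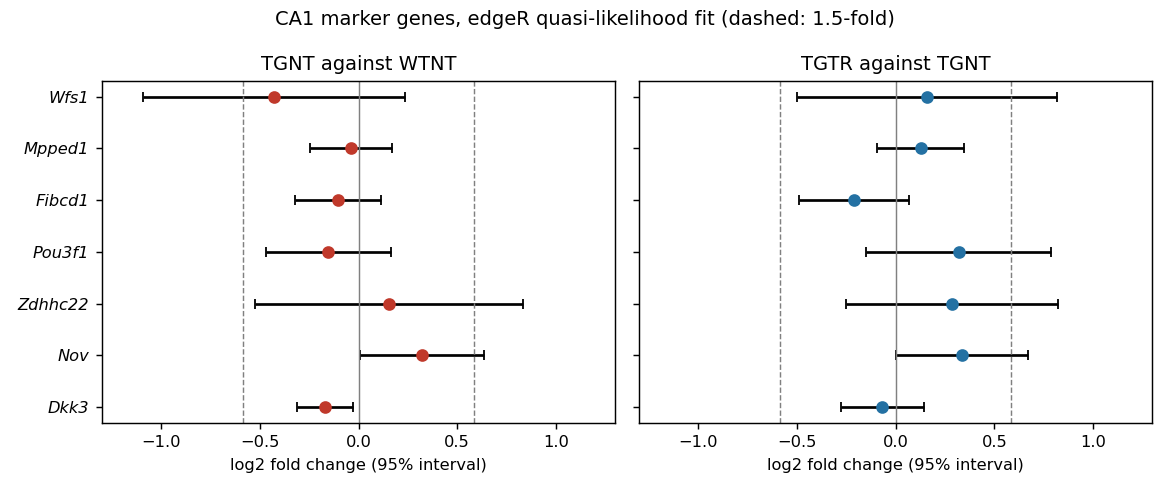
Log2 fold change of each CA1 gene (x axis; points, edgeR quasi-likelihood fit; bars, 95% interval) between TGNT and WTNT rats, left, and between TGTR and TGNT rats, right; dashed lines mark 1.5-fold. Nov lies at 0.32 and 0.34 with intervals that just miss 0, and Wfs1 has intervals that cross both 0 and a dashed line in each comparison.

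The rats of a group differed in Wfs1 far more than in most genes. After centring within groups, the SD of its log2(RPM + 1) was 0.71 in the genotype and 0.61 in the treatment comparison, against medians of 0.15 and 0.11 over the 9629 genes with a mean of at least 5 RPM in both tables. Only 0.280% and 0.623% of those genes had a larger SD. Pou3f1 followed, with SDs of 0.30 and 0.42, exceeded by 8% and 1.91% of the genes. Nov was at 0.31 and 0.29, exceeded by 6.97% and 5.31%. Dkk3 had the smallest SD of the 6 genes compared in the genotype comparison, 0.11, which 72.7% of genes exceeded, and its SD of 0.18 in the treatment comparison came with the low values of TGNT replicate 1 and TGTR replicate 5. Mpped1 and Fibcd1 lay between, at 0.19 to 0.25. Zdhhc22 was below 5 RPM in the genotype comparison and was left out here, since counting noise adds to the spread of so low a gene.

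**Figure D3:**
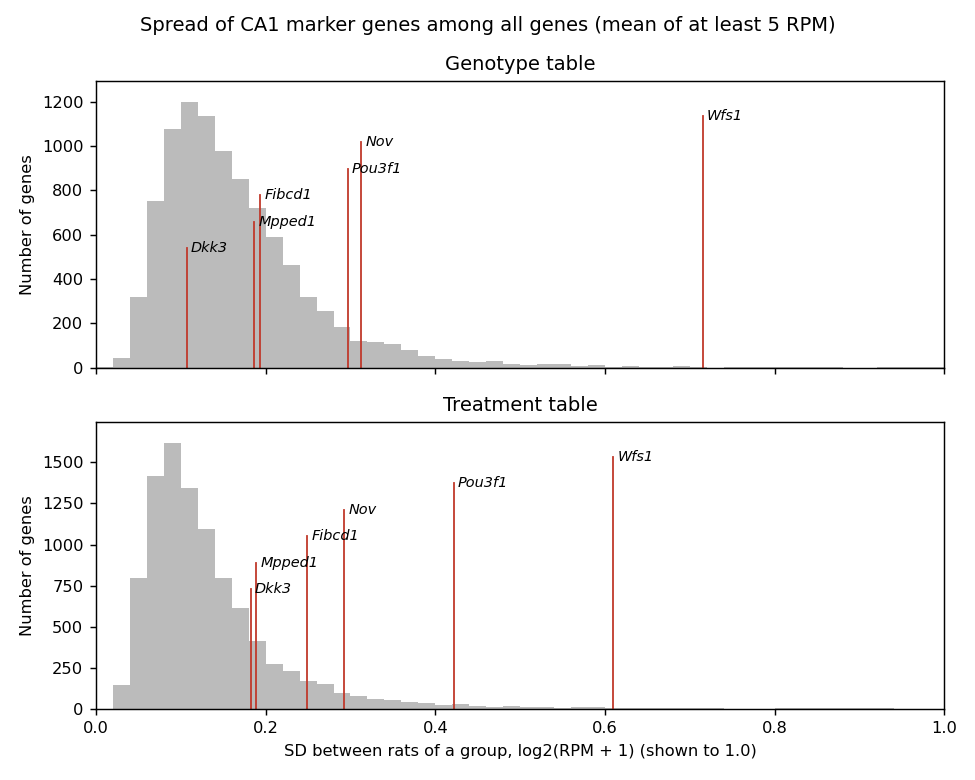
Histogram of the SD between rats of a group on the log2(RPM + 1) scale (x axis, shown to 1.0) over 9629 genes (y axis, number of genes), with 6 CA1 genes as red lines, for the genotype and the treatment table. Wfs1, at 0.71 and 0.61, lies in the far right tail of both, and Dkk3, at 0.11 and 0.18, is within the bulk.

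Whether the 7 genes vary together from rat to rat was asked with correlations of log2(RPM + 1), centred within groups, over the 10 rats of each table, with exact permutations of the rats within groups and p-values adjusted over the 21 pairs. No pair passed an adjusted p under 0.05 in either comparison, by Pearson's r or Spearman's rho, while 3 and 8 pairs had an unadjusted p under 0.05. Pearson's r exceeded 0.5 in 3 of 21 pairs (14.3%) in the genotype comparison, where 13.5% of all pairs of the 9629 genes did, and in 7 of 21 (33.3%) in the treatment comparison, where 14.1% did. The first share is near the background. The median r was 0.12 and 0.22, and 12 of 21 pairs were positive in both comparisons.

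Wfs1 and Pou3f1 formed the pair with the highest r in both comparisons. In the genotype comparison r was 0.70 (rho 0.70, exact permutation p = 0.0335, adjusted p = 0.259), and in the treatment comparison r was 0.85 (rho 0.91, exact permutation p = 0.0102, adjusted p = 0.107). Without the 2 rats farthest from the median of Wfs1, r was 0.41 and 0.64. Among the 7 treatment rats with little ventral marker RNA (below), picked after the values were seen, r was 0.32 (rho 0.53, exact permutation p = 0.646). The relation there was thus weaker without the other 3 rats, which also had low levels of both genes. Mpped1 and Nov had r of 0.61 and 0.69 (rho 0.80 and 0.55, exact permutation p = 0.0358 and 0.0269, adjusted p = 0.259 and 0.108). Without 2 rats r was 0.68 in the genotype comparison and 0.06 in the treatment comparison, where it rested on TGTR replicate 5 and TGNT replicate 3.

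The r of Zdhhc22 with the other genes had both signs. With Dkk3 its r was -0.53 in the genotype comparison (rho -0.51, exact permutation p = 0.170, adjusted p = 0.716) and -0.87 in the treatment comparison (rho -0.77, exact permutation p = 0.00417, adjusted p = 0.0875), and -0.80 without 2 rats in the latter. TGNT replicate 1, with the highest Zdhhc22 level, had the lowest Dkk3 level. With Wfs1 its r was -0.31 and -0.66 (rho -0.20 and -0.76, exact permutation p = 0.387 and 0.0245, adjusted p = 0.801 and 0.108), and with Pou3f1 -0.11 and -0.60 (rho -0.33 and -0.68, exact permutation p = 0.799 and 0.0682, adjusted p = 0.838 and 0.159). In the other direction, its r was 0.61 and 0.11 with Mpped1 (rho 0.43 and -0.25, exact permutation p = 0.0369 and 0.780, adjusted p = 0.259 and 0.854) and 0.50 and 0.40 with Nov (rho 0.53 and 0.18, exact permutation p = 0.217 and 0.567, adjusted p = 0.761 and 0.706).

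**Figure D4:**
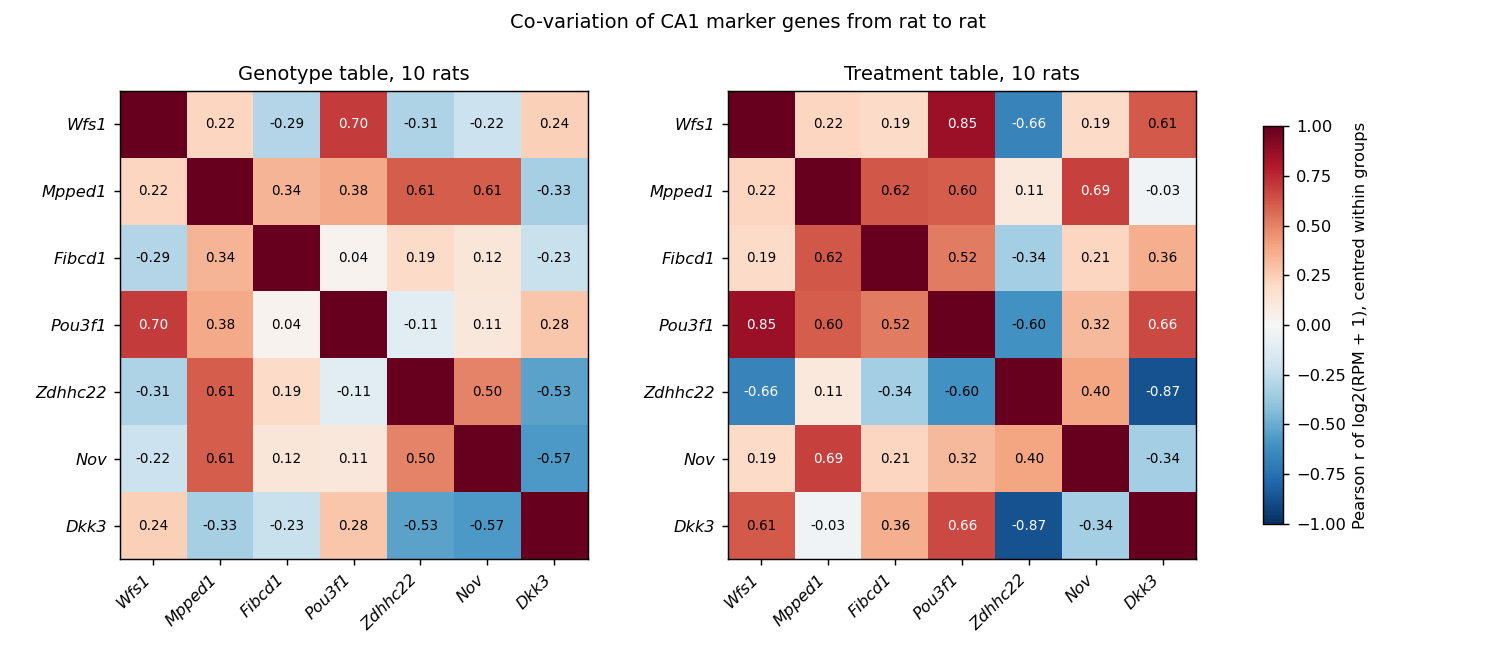
Pearson r between the 7 CA1 genes (rows and columns) over the 10 rats of the genotype table, left, and of the treatment table, right, on log2(RPM + 1) centred within groups; red is positive and blue negative. Wfs1 and Pou3f1 reach 0.70 and 0.85, Zdhhc22 and Dkk3 -0.53 and -0.87, and no pair passes the adjusted threshold.

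Each gene was also set against the library total and against the mean log2 level of 15 marker lists of 3 to 8 genes for other hippocampal fields, neighbouring tissue and cell types, 112 relations per table. After adjustment over the 112, 0 passed in the genotype comparison (14 at an unadjusted p under 0.05) and 15 in the treatment comparison. By Spearman's rho 0 and 8 passed. The 7 that passed by Pearson's r alone were those of Wfs1 with the ventral and oligodendrocyte markers (adjusted p of rho 0.0547 and 0.116, exact permutation test), of Zdhhc22 with the ventral and CA3 markers (0.0708 and 0.0687), of Fibcd1 with the choroid plexus markers (0.0982) and of Pou3f1 and Dkk3 with the excitatory neuron markers (0.143 and 0.182). The library total was in no relation that passed.

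Ventral hippocampal markers gave the lowest adjusted p in both tables, with Wfs1 in the first and Pou3f1 in the second. This list holds Nr2f2, a nuclear receptor, Trhr, the receptor of thyrotropin-releasing hormone, and Dcn, the proteoglycan decorin, used as markers of the ventral part of the hippocampus. Their summed level varied widely within every group, between 23.7 and 93.7 RPM in WTNT, 44.6 and 98.6 RPM in TGNT rats of the genotype comparison, 35.1 and 101 RPM in TGNT rats of the treatment comparison and 27.8 and 92.5 RPM in TGTR rats. All 3 genes had a positive log2 fold change between TGNT and WTNT rats, with a median of 0.55 and 0 of 3 past the thresholds, beside the negative one of Wfs1. The part of the ventral markers in that difference was not tested.

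Pou3f1 and Wfs1 were low where these markers were high. For Pou3f1 r was -0.73 in the genotype comparison (rho -0.79, exact permutation p = 0.0237, adjusted p = 0.332) and -0.94 in the treatment comparison (rho -0.91, exact permutation p = 5.79e-05, the smallest possible, adjusted p = 0.00648). The latter passed in all 10 repeats that left out a rat, with r from -0.98 to -0.91. For Wfs1 r was -0.80 (rho -0.76, exact permutation p = 0.00215, adjusted p = 0.241) and -0.90 (rho -0.85, exact permutation p = 0.00122, adjusted p = 0.0170), and the latter passed in 6 of 10 such repeats. It was lost without TGTR replicate 1 or 3 and without TGNT replicate 1 or 4, with an adjusted p of at most 0.0843. Leaving out the 2 rats farthest from the median of the ventral markers gave -0.43 for Pou3f1 and -0.67 for Wfs1 in the genotype comparison. In the treatment comparison it gave -0.92 and -0.93. For the other lists below, values without 2 rats likewise leave out those farthest from the median of the list.

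In the treatment comparison 3 rats, TGNT replicate 1 and TGTR replicates 2 and 5, had 76.4 to 101 RPM of ventral markers, apart from the other 7 at 27.8 to 45.4 RPM. They had the 3 lowest Pou3f1 levels (38.9, 44.6 and 41.8 RPM) and the 3 lowest Wfs1 levels (174, 140 and 185 RPM). Among the other 7 rats r was -0.69 for Pou3f1 (rho -0.82, exact permutation p = 0.00694, the smallest that 144 arrangements allow) and -0.75 for Wfs1 (rho -0.82, exact permutation p = 0.0556). These 7 rats were picked by their ventral marker level after it was seen, so these p-values are descriptive. The narrower range of that level can lower r by itself. For Dkk3, r with the ventral markers was -0.82 over 10 rats (rho -0.67, exact permutation p = 0.00752, adjusted p = 0.0503). Over the 7 rats, with their narrower range, it was -0.05, so that relation was seen only with the 3 rats included. Zdhhc22 had the opposite sign, 0.64 and 0.82 (rho 0.61 and 0.84, exact permutation p = 0.104 and 0.00411, adjusted p = 0.456 and 0.0383), passed without TGNT replicate 3 or 4 but in none of the other 8 repeats, and was at 0.60 over the 7 rats. Mpped1, Fibcd1 and Nov had r of 0.06, 0.23 and 0.32 in the genotype comparison and of -0.35, -0.49 and -0.06 in the treatment comparison, with no adjusted p under 0.05.

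**Figure D5:**
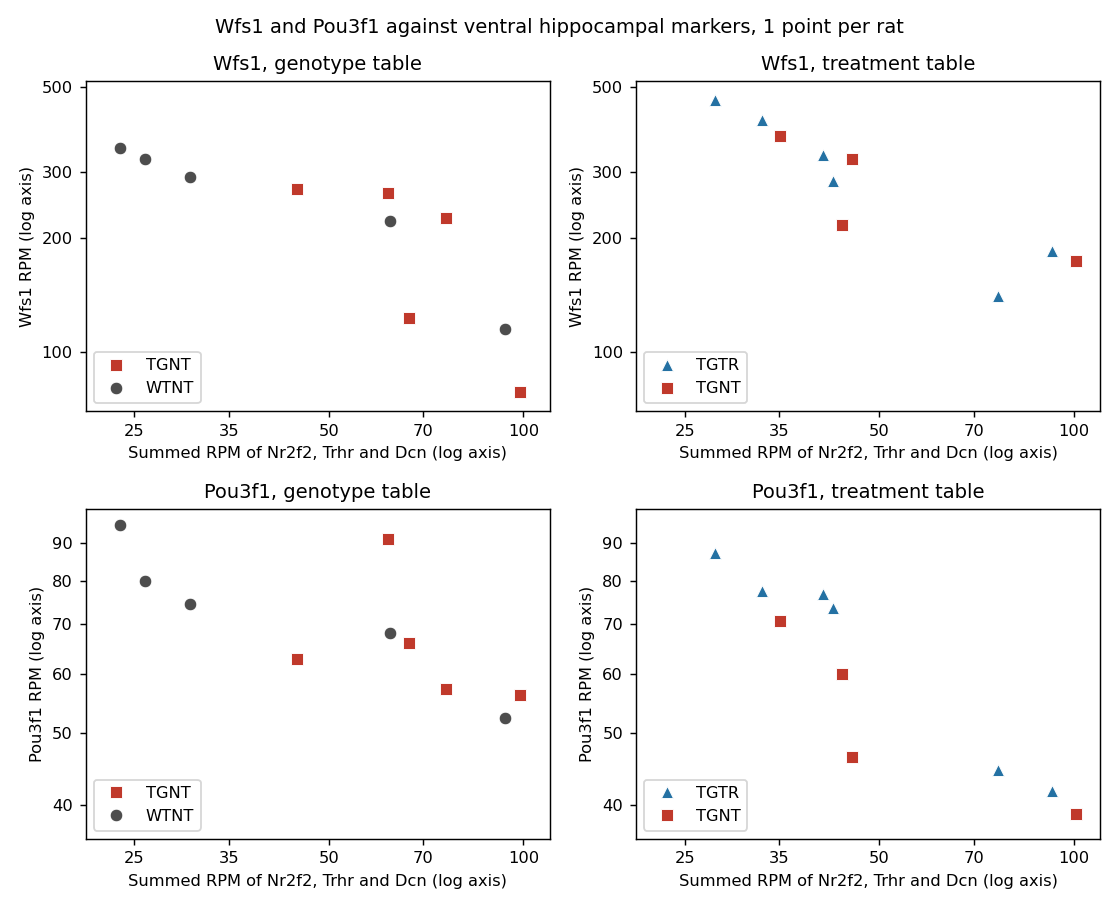
Wfs1 (upper panels) and Pou3f1 (lower panels) RPM in each rat against the summed RPM of Nr2f2, Trhr and Dcn, on log axes, for the genotype table, left, and the treatment table, right; symbols mark the groups. Levels tend to fall from left to right in all 4 panels, and the 3 treatment rats at 76.4 to 101 RPM of ventral markers have Wfs1 levels of 140 to 185 RPM.

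Other lists moved with single CA1 genes in the treatment comparison. Dkk3 followed the CA2 markers, among them Rgs14 and Necab2, with r of 0.98 (rho 0.93, exact permutation p = 0.000289, adjusted p = 0.0113), 0.87 without 2 rats and 0.93 over the 7 rats, and with r of 0.78 in the genotype comparison (rho 0.76, exact permutation p = 0.0228, adjusted p = 0.332). The summed CA2 level was lowest in TGTR replicate 5, at 234 RPM, and in TGNT replicate 1, at 272 RPM, the same 2 rats in which Dkk3 was lowest, and without TGNT replicate 1 the relation no longer passed. Pou3f1 followed the CA3 markers (r = 0.83, rho 0.86, exact permutation p = 0.000405, adjusted p = 0.0113; 0.85 without 2 rats), and this no longer passed without TGTR replicate 1 or 5 or TGNT replicate 1. Wfs1 followed the oligodendrocyte markers, Mbp among them, with r of 0.90 (rho 0.80, exact permutation p = 0.00116, adjusted p = 0.0170) and of 0.76 in the genotype comparison (rho 0.56, exact permutation p = 0.0194, adjusted p = 0.332), and of 0.84 and 0.54 without 2 rats. It no longer passed without TGTR replicate 1, 3 or 5 or TGNT replicate 1 or 2. Oligodendrocyte markers had a negative log2 fold change in 7 of 7 genes between TGNT and WTNT rats (median -0.23) and a positive one in 7 of 7 between TGTR and TGNT rats (median 0.22), as Wfs1 did, with 0 past the thresholds, and their part in the Wfs1 differences was not tested.

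Zdhhc22 was inverse to the dentate granule cell markers (r = -0.87, rho -0.90, exact permutation p = 0.000405, adjusted p = 0.0113), the CA2 markers (r = -0.88, rho -0.85, exact permutation p = 0.00110, adjusted p = 0.0170) and the excitatory neuron markers (r = -0.88, rho -0.93, exact permutation p = 0.000637, adjusted p = 0.0143), in the treatment comparison. Without 2 rats these were -0.88, -0.61 and -0.78, and none of them passed without TGTR replicate 1 or 5 or without TGNT replicate 1, nor the relations to the dentate and CA2 markers without TGNT replicate 2. Fibcd1 was inverse to the choroid plexus markers (r = -0.86, rho -0.77, exact permutation p = 0.00515, adjusted p = 0.0436), and this fell to -0.56 without 2 rats. TGTR replicate 5, with 2881 RPM of these markers, had the lowest Fibcd1 level, and of the 10 repeats that left out a rat the relation passed only in that without TGNT replicate 3. The other 5 of the 15 relations that passed had adjusted p-values of 0.0330 to 0.0436 and were those of Pou3f1 and Dkk3 with the excitatory neuron markers, of Dkk3 with the mature neuron and oligodendrocyte markers, all positive, and of Zdhhc22 with the CA3 markers, which was negative. Mpped1 and Nov were in none of the 15.

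The genes most like each CA1 gene were ranked by Pearson's r of the centred log2(RPM + 1) over the 10 rats of the genotype comparison among 9628 genes, as a description without a test, and looked up in the treatment comparison. Pou3f1 was nearest to Jdp2, which encodes a bZIP transcription factor, with r of 0.96 in both comparisons and the fifth place of 9628 in the second. Wfs1 was nearest to Fbxo32, Ppm1b and Kcnh7, with r of 0.93, 0.93 and 0.92, and of 0.87, 0.74 and 0.88 in the treatment comparison. Dkk3 was nearest to Cacng2, an auxiliary subunit of AMPA receptors, with r of 0.93 and 0.92, followed by Nob1, with 0.91 and then 0.13, and Pqlc1, with 0.90 and then 0.64. Those next to Jdp2 for Pou3f1, Tp53inp2 and Arhgef37, went from 0.94 and 0.92 to 0.67 and 0.68. Mpped1 was nearest to Ptdss2, with r of 0.94 and then -0.03, Fibcd1 to Hdgfrp2, with 0.97 and then -0.15, and Nov to Slu7, with 0.94 and then 0.36. The next neighbours of Fibcd1, Acta2 of smooth muscle and Col4a1 of basement membranes, went from 0.96 and 0.94 to -0.64 and -0.53.

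The markers of neighbouring fields and of other cell types named here gave no called gene in either comparison by edgeR's quasi-likelihood test. The study's own edgeR analysis, in contrast, reported Slc17a6, on the subiculum and cortex list, as higher in TGTR than in TGNT rats. Between TGNT and WTNT rats the log2 fold change was negative in 4 of 5 CA2, 2 of 3 CA3 and 5 of 5 dentate granule cell markers measured, with medians of -0.24, -0.16 and -0.16, beside -0.10 for the 7 CA1 genes. Between TGTR and TGNT rats it was negative in 5 of 5 CA2 and 3 of 3 CA3 markers, with medians of -0.17 and -0.27, and positive in 3 of 5 dentate markers, with a median of 0.08, beside 0.16 for the CA1 genes. Subiculum and cortex markers had a positive log2 fold change in 2 of 4 genes between TGNT and WTNT rats (median 0.042). Between TGTR and TGNT rats it was positive in 4 of 4 (median 0.31), with a smallest adjusted p of 0.400 (edgeR quasi-likelihood test). In that comparison 2 of 4 had an unadjusted p under 0.05, beside 5.67% of all genes with reads. So did 4 of 8 choroid plexus, 2 of 5 endothelium and 2 of 5 thalamus and habenula markers. The same was true of 1 of 5 CA2, 1 of 5 inhibitory neuron and 1 of 2 other CA1-enriched markers. Inhibitory neuron and endothelium markers were each positive in 5 of 5 genes between TGTR and TGNT rats, with medians of 0.16 and 0.14, and in 4 of 5 and 1 of 5 between TGNT and WTNT rats, with medians of 0.034 and -0.047. Excitatory neuron markers were negative in 5 of 5 genes in both comparisons, with medians of -0.14 and -0.12. Between TGTR and TGNT rats mature neuron and astrocyte markers were each negative in 5 of 5 genes, and microglia markers in 4 of 5. Between TGNT and WTNT rats these were negative in 3, 2 and 0 of 5 genes. Choroid plexus markers were positive in 8 of 8 genes between TGTR and TGNT rats, and in 1 of 8 between TGNT and WTNT rats. In summed RPM, only TGTR replicates 5 and 6, at 2881 and 137, were above the TGNT rats of that table. TGTR replicates 1 to 4, at 3.81 to 7.10 RPM, were below all of those TGNT rats, at 7.54 to 18.2 RPM. The part of these lists in the differences of the CA1 genes and the differences between the lists were not tested.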

How the data were processed

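Left or right hippocampi of 20 rats were sequenced as stranded poly(A) libraries (Kapa), 1 per rat. The authors' processing notes name bcl2fastq 2.17, Bowtie2 2.1.0, RSEM 1.2.15, edgeR and build rn6, and the annotation is not given in the sources used here. The authors deposited RSEM estimated counts per gene symbol, not normalized, and a signal, RPM, scaled by TMM within each table of 10 rats. RSEM divides reads that fit several genes, which can blur near-identical copies, but the estimates of all 7 CA1 genes were whole numbers in every rat. No column lacked a sample.

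Rounded estimated counts went into edgeR 4.0.16 under R 4.3.3 (TMM factors, quasi-likelihood test, two-sided, Benjamini-Hochberg adjustment over all 17168 genes), each comparison by itself. Correlations used log2(RPM + 1), a scale that understates changes of low genes. All permutation tests were exact and two-sided, over 14400 (genotype) or 17280 (treatment) arrangements for correlations. The samples are separate rats. Within each group, the counts of every pair of libraries differed by more than sampling noise. Replicate numbers are shared between groups. The deviations of same-numbered rats had correlations of either sign (from -0.25 to 0.43 and from -0.64 to 0.18), with no common direction, so the rats were not paired. The scripts were tested on simulated data.

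The alternatives were DESeq2 1.42.0, edgeR's exact and likelihood ratio tests, limma-trend (limma 3.58.1) with 1 or 0.1 RPM added, RLE factors, library size only, filterByExpr, a replicate block, Spearman's rho, no fold threshold and fits without each rat. The genes named are the 7 members, App, the 3 nearest genes of each member, and at most the 2 highest genes of a marker list. Spink8 is one of these last. Nr2f2, Trhr and Dcn are shown together as their list, and Slc17a6 is named because the study reported it. The values of some other marker genes are not reported here. The members and lists were chosen with earlier results of these data known. Depth sets the precision of Zdhhc22, the lowest of the 7.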

Additional observations from a re-analysis of the deposited data

Results flagged for a closer look

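In 28 groups of 4 to 6 rats (7 genes in 4 groups), 3 held a rat whose distance to its nearest neighbour took up an unusually large part of the group's range by Dixon's criterion at 95%, where chance gives about 1 in 20 groups, or 1.4 here. Pou3f1 was at 91.1 RPM in TGNT replicate 2 of the genotype comparison, above the next rat at 65.9 RPM. Dkk3 was at 346 RPM in TGTR replicate 5, below the next rat at 405 RPM. Dkk3 was at 325 RPM in TGNT replicate 1 of the treatment comparison, below the next rat at 453 RPM.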

How the results depend on the processing

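The number of CA1 genes past the thresholds was 0 under every alternative in both comparisons, and the smallest adjusted p of any of the 7 genes over all alternatives was 0.778 in the genotype and 0.385 in the treatment comparison. The number at an unadjusted p under 0.05 was 1 in place of 2 in the genotype comparison with DESeq2, limma-trend at either pseudocount, RLE factors and filterByExpr, and 0 in place of 1 in the treatment comparison with limma-trend at either pseudocount and filterByExpr. Without each rat in turn it ranged from 0 to 3 in both. In the genotype comparison it was 0 without WTNT replicate 1 or 2, and 3 without WTNT replicate 5. In the treatment comparison it was 0 without TGTR replicate 1, 2, 3, 4 or 6, and without TGNT replicate 2 or 3. It was 3 there without TGNT replicate 1. The number higher in TGNT ranged from 1 to 3 and that higher in TGTR from 4 to 5, the number with an exact permutation p under 0.05 from 0 to 1 and from 0 to 3, the pairs called from 0 to 0 and from 0 to 3, and the relations to lists and depth called from 0 to 2 and from 1 to 26. In the treatment comparison this last number, 15 with all rats, was 2 without TGTR replicate 1, 6 without TGTR replicate 3, 4 without TGTR replicate 5, 1 without TGNT replicate 1, 5 without TGNT replicate 2 and 26 without TGNT replicate 3. The smallest possible p is larger with fewer rats. The sign of the log2 fold change turned for Mpped1 in the genotype comparison, from -0.14 to 0.022 over the rats left out, for Zdhhc22 in the genotype comparison, from -0.069 to 0.35, and for Wfs1 in the treatment comparison, from -0.0088 to 0.34. The cause of these shifts was not tested. The replicate block left 0 genes called and the unadjusted counts at 2 and 1, and with pairs of same-numbered rats as the unit 0 pairs of genes were called. The 7 treatment rats with less than 70 RPM of ventral markers were singled out after seeing the data.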
